A study of Mus musculus with 6 samples.

Results

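The genes described are 9 output and accessory genes of the circadian clock, Dbp, Tef, Hlf, Nfil3, Ciart, Bhlhe40, Bhlhe41, Rora and Usp2, in inguinal fat of mice. They were picked by symbol, with earlier results of these mice in view, from the 55573 genes of the deposited RNA-seq tables, and all 9 were found. The mutant mice carried THRA K283Q/K288R, which alters a sumoylation site of thyroid hormone receptor alpha, as a homozygous knock-in in all cells of the body. The Wt mice were of the same strain, C57BL/6NTac, and bred in house. Inguinal fat, a subcutaneous depot, was taken from 3 mutant and 3 Wt mice, and each mouse gave 1 library. All 6 mice were untreated males, 3 months old, on regular chow, kept in a cycle of light and dark with free access to food. The hour at which the fat was collected is not given in the sources used here, and genotype and hour of collection could not be separated for genes that cycle over the day.

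The clock of mammalian cells is a loop in which CLOCK and BMAL1 (gene Arntl) switch on genes through E-boxes and are then held back by PER and CRY proteins. REV-ERB and ROR receptors compete at RORE elements and set the rhythm of Arntl and Nfil3, while the PAR bZIP activators DBP, TEF and HLF compete with the repressor NFIL3 at D-boxes and carry the rhythm to genes of metabolism. BHLHE40 and BHLHE41 repress through E-boxes, CIART represses CLOCK and BMAL1, and USP2 removes ubiquitin from clock proteins among others. In fat, this machinery gives daily rhythms to genes of lipid storage and release.

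Values are normalized CPM, which are reads scaled to the depth of the library and by a further factor for each mouse. The libraries held 19607423 to 24228381 reads on genes, the factors lay between 0.962 and 1.109, and 3 reads on a gene were worth 0.126 to 0.157. Of the members, 9 of 9 passed the filter on low reads that left 16868 genes, and the one with fewest reads was Ciart, with 16 to 72 reads per mouse. Log2 differences are mutant minus Wt, were taken on log2(value + 0.5) and come out too small where values are low. A gene was called where limma gave an adjusted p under 0.05 over all genes tested. Because the members were chosen with the contrast of the genotypes known, their differences are given as a description, with no p. The mice are separate animals, but no source says how they were spread over litters or days.

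The promoter windows of RefSeq (GRCm38.p6, 250 bases before to 50 bases after a start) covered 8 of the 9 members with 9 windows, Tef having 2, and were searched on both strands for the letters of the clock elements. These were CACGTG for the E-box, TTATGTAA and TTACGTAA for the D-box, TAGGTCA and TGGGTCA for the RORE, and TGACGTCA for the CRE, the element bound by CREB. None of these words holds another. Stretches around the matches are shown because they hold the elements named above next to the genes whose levels follow, with the matched letters in capitals and the strand of the gene, 5′ to 3′.
Ciart, chr3:95882263-95882353, minus strand, upstream of the gene: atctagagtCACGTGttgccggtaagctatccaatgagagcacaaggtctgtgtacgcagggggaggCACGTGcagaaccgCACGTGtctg
Bhlhe41, chr6:145865561-145865600, minus strand, upstream of the gene: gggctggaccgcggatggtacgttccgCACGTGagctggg
Tef, first start, chr15:81802534-81802563, plus strand, in an exon: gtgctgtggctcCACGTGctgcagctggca
Tef, second start, chr15:81811265-81811294, plus strand, in an intron: acctggcccagCACGTGtctacatcgtttg
Nfil3, chr13:52981040-52981063, minus strand, in an exon: ggcgctcggaacTGACCTActaac
Hlf, chr11:90390918-90390977, minus strand, upstream of the gene: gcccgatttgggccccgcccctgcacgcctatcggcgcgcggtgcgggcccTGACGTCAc
Ciart held 3 E-boxes, starting 116, 58 and 44 bases before its RefSeq start. The E-box of Bhlhe41 lay 153 bases before its start, and those of Tef lay 127 and 138 bases before their starts. Nfil3 held 1 RORE, read on the other strand and so written TGACCTA here, 12 bases before its start, and Hlf held 1 CRE 9 bases before its start. Of all 32851 windows of this length, 7.15% held the E-box letters, 1.06% the D-box letters, 6.45% the RORE letters and 1.79% the CRE letters. The annotation of exons is that of GENCODE M21, and a match of letters is a description and not a site shown to be bound. The windows of Dbp, Rora and Usp2 held none of these letters.

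The 3 PAR bZIP activators were lower in every mutant mouse than in any Wt mouse, and Nfil3, which opposes them, was higher. Dbp (ENSMUSG00000059824, chr7:45705088-45710203, plus strand) encodes the albumin D-box binding protein, a transcription factor whose RNA has one of the deepest daily rhythms known. Its normalized CPM was 121, 113 and 110 in Wt mice 1 to 3 and 25.6, 18.9 and 22.5 in mutant mice 1 to 3. All 3 mutant mice stood far below all 3 Wt mice, and the lowest Wt mouse was still 4.3 times the highest mutant mouse. The means were 115 ± 5.63 (SD, n = 3) in Wt and 22.3 ± 3.34 (SD, n = 3) in mutant mice, a ratio of 5.13, and the log2 difference was -2.34 (SE 0.12). Of all genes tested, 0.794% had a log2 difference of this size or more in either direction. An exonic stretch of 539 bases, 18% of the exonic length of Dbp, is shared with Sphk2 on the other strand. Sphk2, a sphingosine kinase, read 35.8, 36.1 and 39.9 in Wt and 36.4, 33.7 and 33.6 in mutant mice. Its genotypes overlapped, at a log2 difference of -0.11 (SE 0.08, adjusted p = 0.466 by limma).

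Tef (ENSMUSG00000022389, chr15:81802421-81826863, plus strand), thyrotroph embryonic factor, was the most abundant PAR bZIP gene before correction for length. It stood at 246, 210 and 189 in Wt and at 123, 104 and 119 in mutant mice. The 2 genotypes were apart, and the Wt mice were more spread than the mutant mice, with coefficients of variation of 13.3% and 8.61%. The means were 215 ± 28.6 (SD, n = 3) and 116 ± 9.95 (SD, n = 3), a ratio of 1.86, with a log2 difference of -0.89 (SE 0.12). Hlf (ENSMUSG00000003949, chr11:90336536-90390895, minus strand), hepatic leukemia factor, was less abundant, at 38.8, 31.9 and 30.8 in Wt and 17.8, 14.7 and 14.6 in mutant mice. Here too every mutant mouse was below every Wt mouse, and in both genotypes mouse 1 read highest. The Hlf means were 33.8 ± 4.34 and 15.7 ± 1.85 (SD, n = 3 each), a ratio of 2.16, with a log2 difference of -1.08 (SE 0.13). The log2 differences of the 3 activators thus ran from -2.34 for Dbp to -0.89 for Tef.

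Nfil3 (ENSMUSG00000056749, chr13:52967209-52981073, minus strand), also known as E4BP4, is the bZIP repressor of D-boxes. It read 5.87, 5.54 and 5.13 in Wt and 19.2, 18.8 and 15.6 in mutant mice. It was the 1 member with all mutant mice above all Wt mice, and the lowest mutant mouse was 2.66 times the highest Wt mouse. The means were 5.51 ± 0.367 (SD, n = 3) and 17.9 ± 1.94 (SD, n = 3), 3.24-fold, with a log2 difference of 1.61 (SE 0.13). No gene on the other strand shares exonic bases with Nfil3, Hlf or Ciart. Of 9 immediate early genes, which like Nfil3 respond quickly to signals reaching the cell, 4 were called higher in mutant mice (Fos, Fosb, Egr1 and Dusp1) and 0 lower. Over all genes tested, 5.5% were called higher and 2.61% lower. Junb went the other way, at a log2 difference of -0.74, with its genotypes overlapping. Dusp1 and Junb share exonic bases with genes on the other strand that were 2.46 and 2.81 times as abundant. Egr1 kept its call without any 1 mouse, whereas Fos lost it without each mouse in turn, Fosb without Wt mouse 2 or mutant mouse 2, and Dusp1 without any of the Wt mice. The summed level of all 9 immediate early genes was 223 to 246 in Wt and 268 to 308 in mutant mice. Its part in the level of Nfil3 was not tested.

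**Figure D1:**
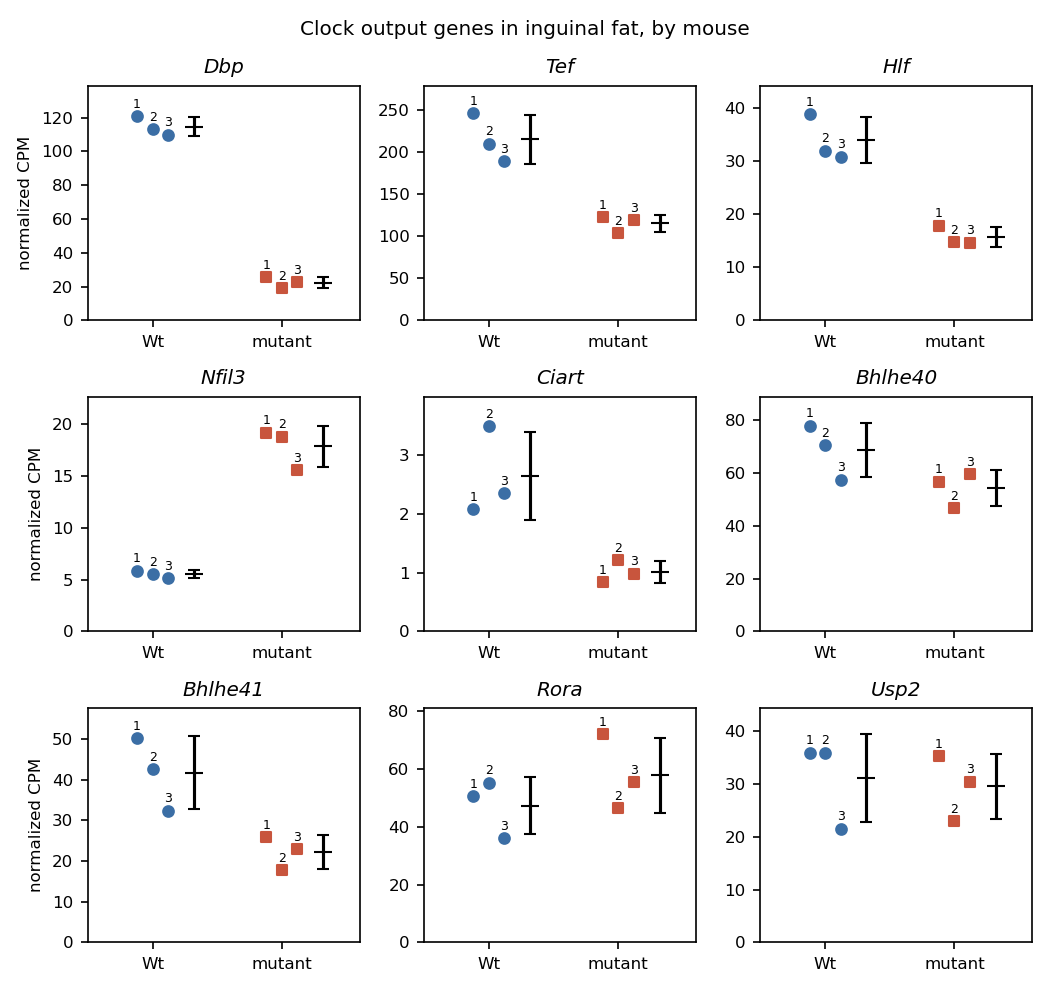
Each panel plots 1 gene, with normalized CPM on a linear axis from 0, circles for Wt and squares for mutant mice, mouse numbers above the points, and the mean with SD at the side. Dbp, Tef, Hlf, Ciart and Bhlhe41 have all mutant mice below all Wt mice, Nfil3 has them above, and Bhlhe40, Rora and Usp2 overlap.

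To set the activators against their repressor, the levels were divided by the exonic length of each gene, merged over all its annotated transcripts. This length was 2993 bases over 5 transcripts for Dbp, 7867 over 10 for Tef, 6681 over 6 for Hlf and 2026 over 1 for Nfil3. Which transcripts the fat used was not tested, and shorter ones would raise the level per length of a gene. On this scale Dbp led the Wt fat at 38.3 ± 1.88 CPM per kb (SD, n = 3), followed by Tef at 27.3 ± 3.64, Hlf at 5.06 ± 0.649 and Nfil3 at 2.72 ± 0.181. In mutant fat, Tef led at 14.7 ± 1.26, and Nfil3 at 8.81 ± 0.958 and Dbp at 7.46 ± 1.12 overlapped. Hlf was at 2.35 ± 0.277 there. With these lengths, Nfil3 was the scarcest of these 4 genes in every Wt mouse and exceeded Dbp and Hlf in every mutant mouse. In mutant mouse 3 the gap to Dbp was small, at 7.71 for Nfil3 and 7.52 for Dbp. The level of Dbp per length was 13.9, 13.8 and 14.5 times that of Nfil3 in Wt mice 1 to 3 and 0.903, 0.682 and 0.975 times in mutant mice 1 to 3. The sum of Dbp, Tef and Hlf per length was 26.7, 25.3 and 25.8 times Nfil3 in Wt and 2.84, 2.35 and 3.22 times in mutant mice. The genotypes stood far apart in both ratios, which were nearly even among Wt mice and more spread among mutant mice. The ratios do not depend on the scaling of a library, but their size depends on the lengths used. Within the sum of the 3 activators, Dbp made up 52.1 to 56.2% in Wt and 29 to 31.8% in mutant mice, whereas Tef made up 36.8 to 40.4% in Wt and 58.3 to 61% in mutant mice. Hlf stayed the smallest, at 6.91 to 7.5% in Wt and 8.77 to 10.1% in mutant mice.

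**Figure D2:**
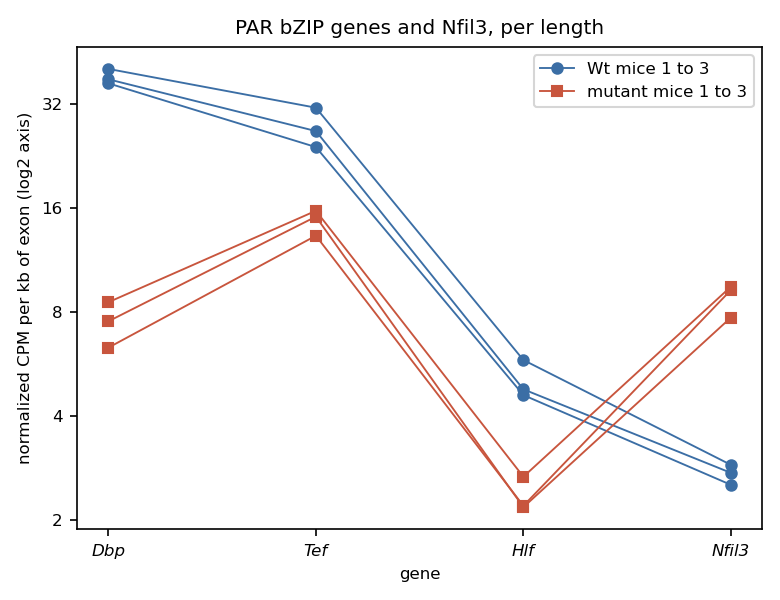
Normalized CPM per kb of exon, on a log2 axis, of Dbp, Tef, Hlf and Nfil3, with 1 line per mouse. Wt lines run downward from Dbp to Nfil3, whereas mutant lines run between 6.31 and 8.54 at Dbp, peak at Tef and lie above the Wt lines at Nfil3.

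Among the repressors that act on E-boxes, Ciart and Bhlhe41 were lower in mutant mice and Bhlhe40 overlapped. Ciart (ENSMUSG00000038550, chr3:95878503-95882251, minus strand), also called CHRONO, was the scarcest member, at 2.09, 3.5 and 2.36 in Wt and 0.838, 1.21 and 0.983 in mutant mice. These values rest on 50, 72 and 56 reads in Wt and 16, 27 and 21 reads in mutant mice. The genotypes did not overlap, though Wt mouse 2 stood above the other Wt mice. The means were 2.65 ± 0.748 and 1.01 ± 0.188 (SD, n = 3 each), a ratio of 2.62. The log2 difference was -1.04 (SE 0.21) with a pseudocount of 0.5 and -1.38 by edgeR on the recovered reads.

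Bhlhe41 (ENSMUSG00000030256, chr6:145858243-145865558, minus strand), also known as DEC2, read 50.3, 42.7 and 32.4 in Wt and 25.9, 17.8 and 23 in mutant mice. The genotypes were apart by a narrow margin, since Wt mouse 3 was 1.25 times mutant mouse 1. The means were 41.8 ± 8.95 and 22.2 ± 4.09 (SD, n = 3 each), a ratio of 1.88, with a log2 difference of -0.89 (SE 0.20). Its paralog Bhlhe40 (ENSMUSG00000030103, chr6:108660629-108666925, plus strand), DEC1, was at 77.9, 70.6 and 57.4 in Wt and 56.7, 46.7 and 59.6 in mutant mice. Mutant mouse 3 exceeded Wt mouse 3, so the genotypes overlapped. The Bhlhe40 means were 68.6 ± 10.4 and 54.3 ± 6.77 (SD, n = 3 each) and the log2 difference was -0.33 (SE 0.15). Both genes are overlapped by a scarce gene on the other strand. Gm43909, which shares 1280 exonic bases with Bhlhe41, read 1.01, 0.389 and 0.421 in Wt and 2.15, 2.06 and 1.4 in mutant mice. It thus stood higher in mutant mice, opposite to Bhlhe41, without passing the test (log2 difference 1.13, adjusted p = 0.0511 by limma). 0610040F04Rik, which shares 118 exonic bases with Bhlhe40, was called higher in mutant mice on 2 to 3 reads in Wt and 9 to 16 in mutant mice (log2 difference 0.86, adjusted p = 0.0276 by limma), a call that was kept without mutant mouse 1 and lost without each of the other mice. How the reads were assigned to strands is not given in the sources used here, so reads of such pairs may have been exchanged.

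The remaining members, Rora and Usp2, did not separate the genotypes. Rora (ENSMUSG00000032238, chr9:68653786-69388246, plus strand), the ROR alpha receptor that activates through ROREs, read 50.7, 55.3 and 36.2 in Wt and 72, 46.4 and 55.4 in mutant mice. Mutant mouse 1 was the highest and Wt mouse 3 the lowest, with the other mice mixed between them. The means were 47.4 ± 9.96 and 57.9 ± 13 (SD, n = 3 each) and the log2 difference was 0.29 (SE 0.21). Usp2 (ENSMUSG00000032010, chr9:44067021-44095627, plus strand) read 36, 36 and 21.6 in Wt and 35.3, 23 and 30.5 in mutant mice. Its means of 31.2 ± 8.32 and 29.6 ± 6.2 (SD, n = 3 each) were close together, with a log2 difference of -0.06 (SE 0.25) that changed sign under some alternatives. Rora and Usp2 had the widest spread in mutant mice among the members, with coefficients of variation of 22.4% and 20.9%.

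Part of the spread within a genotype was shared among members. In 6 of 9 members (Dbp, Tef, Bhlhe40, Bhlhe41, Rora and Usp2), Wt mouse 3 was the lowest Wt mouse and mutant mouse 2 the lowest mutant mouse, which was so for 13.2% of all genes tested. With scaling by library size alone it was so for 5 of 9, against 7.56% of all genes tested, Dbp no longer being among them. The summed level of 8 skeletal muscle markers (Acta1, Ckm, Myh4, Myh1, Myh2, Myh7, Tnnt1 and Tnnt3) had the same 2 low mice. It was 21601, 19401 and 10089 in Wt and 25331, 16276 and 25328 in mutant mice. This sum, most of it Myh4 and Acta1, overlapped between genotypes, but 4 of the 8 markers (Myh1, Myh2, Myh7 and Tnnt1) were higher in every mutant mouse than in any Wt mouse. That was so for 14.9% of all genes tested. Myh7 read 2.47, 150 and 35.8 in Wt and 444, 303 and 422 in mutant mice, and Tnnt1 read 0.88, 35.5 and 11.4 and then 108, 74.9 and 96.4. Of the 8 markers 1 was called, Myh1, at 31.1, 279 and 166 in Wt and 2405, 1986 and 2385 in mutant mice. Of all genes tested, 5.5% were called higher. The call of Myh1 was lost without Wt mouse 3, mutant mouse 2 or mutant mouse 3. Usp2, Rora and Bhlhe41 are all known to be expressed in muscle. The part of muscle RNA in their values was not tested. In bulk tissue, fewer cells of a type and less RNA per cell cannot be told apart.

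**Figure D3:**
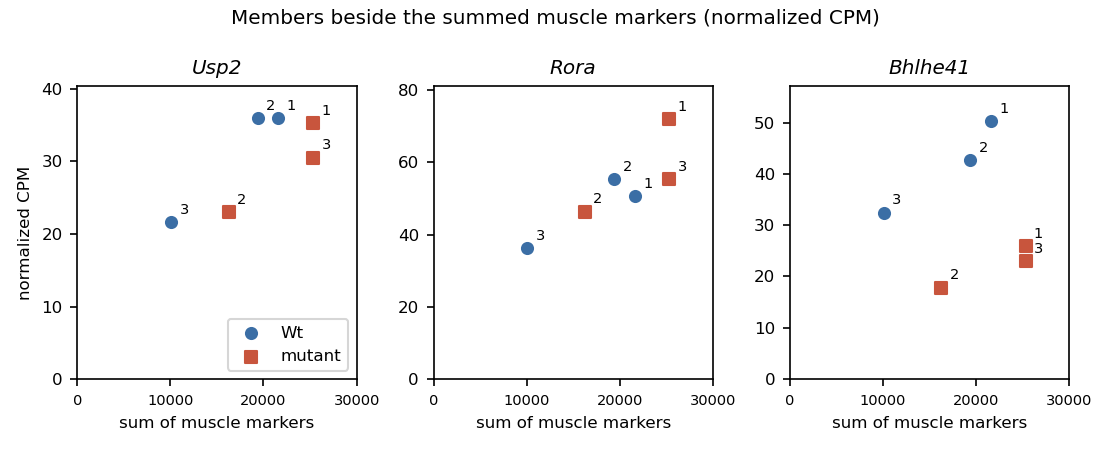
Normalized CPM of Usp2, Rora and Bhlhe41 (vertical axes) against the summed normalized CPM of 8 skeletal muscle markers (horizontal axes) in the same mouse, with circles for Wt and squares for mutant mice and the mouse numbers beside them. Wt mouse 3 and mutant mouse 2 are the low points of their genotype on both axes, and for Bhlhe41 every mutant mouse lies below every Wt mouse. The sums run from 10089 to 21601 in Wt and from 16276 to 25331 in mutant mice.

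The other cell types in the samples were read from marker lists. Adipocyte markers summed to 12918 to 18414 in Wt and 10596 to 16772 in mutant mice, with 0 of 6 called, and were abundant in every mouse. Mesothelial markers, of the lining of the body cavities, summed to 4.72 to 31.3 in Wt and 33.8 to 70.4 in mutant mice, with 5 of 6 called higher. The share called higher among all genes tested was 5.5%. The marker not called, Krt19, read 28.5 in Wt mouse 1, and the sum of the 5 called markers was 1.99 to 4.59 in Wt and 29.8 to 61.6 in mutant mice. B cell markers summed to 2.36, 320 and 505 in mutant mice 1 to 3 and to 258 to 553 in the Wt mice, with 0 of 4 called. T cell markers summed to 1.89, 72.7 and 91.8 in mutant mice 1 to 3 and to 45.8 to 166 in the Wt mice, with 0 of 3 called. Mutant mouse 1 thus stood apart, and the other mutant mice lay within the range of the Wt mice. Macrophage markers (525 to 594 in Wt, 489 to 604 in mutant mice), endothelial markers (576 to 620 and 564 to 650) and epithelial markers (3.84 to 51 and 2.39 to 20.3) overlapped, with 0 called in each list. The part of mesothelial cells in the members' levels was not tested. Without mutant mouse 1, which nearly lacked lymphocyte RNA, the log2 differences kept their directions for all 9 members, and 5 of 9 were called, where 5.96% of all genes tested were called.

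In all, 6 of 9 members were called, 5 lower and 1 higher in mutant mice, where 8.11% of all genes tested were called (5.5% higher and 2.61% lower). The genotypes did not overlap for the same 6 members, against 30.6% of all genes tested (14.9% with mutant mice higher and 15.7% with mutant mice lower). As this contrast was known when the members were chosen, nothing is read from these counts. The 928 genes called higher and 440 called lower over all genes became 1019 and 265 with scaling by library size alone, and 858 and 106 after correction for GC content. Dbp, Tef, Hlf and Nfil3 were called under each of the 19 alternatives. Leaving out any of the 6 mice took away the call of Ciart, and leaving out Wt mouse 1, Wt mouse 2, mutant mouse 2 or mutant mouse 3 took away that of Bhlhe41. The count of members called was then 4, and it was 5 without Wt mouse 3 or mutant mouse 1. Leaving out 1 mouse, 3.28% to 5.96% of all genes tested were called. Bhlhe41 also lost its call with TMM scaling, a pseudocount of 0.1, the GC correction, no filter, at least 10 reads required in every mouse, or without genes overlapped by an abundant opposite-strand gene, and Ciart lost it with no filter or without those genes.

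Ordered by level per length, the Wt fat gave Dbp, Tef, Bhlhe40, Usp2, Bhlhe41, Hlf, Rora, Nfil3 and Ciart. Neighbours whose Wt mice overlapped were Usp2 with Bhlhe41, Bhlhe41 with Hlf, and Rora with Nfil3. In mutant fat the order was Tef, Bhlhe40, Nfil3, Dbp, Usp2, Rora, Bhlhe41, Hlf and Ciart, and each gene from Nfil3 to Bhlhe41 overlapped the next one down the list. Dbp went from the first rank to the fourth and Nfil3 from the eighth to the third. These ranks rest on the same merged exonic lengths. Bhlhe40 was at 14.6 ± 2.21 CPM per kb in Wt and 11.5 ± 1.44 in mutant mice (SD, n = 3 each).

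The loop that drives these outputs was described by 25 further clock genes in 6 lists, written with earlier results of these data known. All 25 were tested, and 8 were called, 5 higher and 3 lower, where 8.11% of all genes tested were called (5.5% higher and 2.61% lower). All 3 activators of the core loop were higher in mutant mice. Arntl, which encodes BMAL1, read 10.1, 14.8 and 13.5 in Wt and 38.7, 42 and 35.7 in mutant mice (log2 difference 1.58, adjusted p = 0.00309 by limma). Npas2, a partner of BMAL1 that can replace CLOCK, had a log2 difference of 1.93 (adjusted p = 0.00166), and Clock one of 0.58 (adjusted p = 0.0257). Of the 5 core repressors, 2 were lower. Per2 read 34.4, 27 and 27.2 in Wt and 10.3, 12.2 and 10.3 in mutant mice (log2 difference -1.39, adjusted p = 0.00293), and Per3 had a log2 difference of -1.21 (adjusted p = 0.00417). Per1, Cry1 and Cry2 overlapped between genotypes, at log2 differences of -0.08, 0.25 and -0.09. Arntl, Npas2, Per2 and Per3 were called under all 19 alternatives, and the call of Clock was lost on leaving out any 1 of the 6 mice.

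The REV-ERB receptors, which repress through the ROREs that Rora activates, lay lower in every mutant mouse without passing the test. Nr1d1 read 416, 328 and 300 in Wt and 255, 180 and 192 in mutant mice (log2 difference -0.74, adjusted p = 0.0579 by limma). Nr1d1 has exonic bases in common with a gene on the other strand 0.502 times as abundant, so its values may hold reads of that gene. Nr1d2 had a log2 difference of -0.70 (adjusted p = 0.0612). Both were called with scaling by library size alone, by DESeq2's Wald test, without mutant mouse 1, and with a block for mouse number, with or without the GC correction. Rorb, like Rora, overlapped between genotypes, and 0 of 5 kinases and F-box proteins that act on clock proteins were called. Of 8 other genes that cycle in many tissues, Tspan4 was lower (-0.96, adjusted p = 0.00498), Tsc22d3 (0.59, adjusted p = 0.0102) and Lonrf3 (0.83, adjusted p = 0.0443) were higher, and 5 were not called. Among these 5, Por (-0.67, adjusted p = 0.0749 by limma) and Wee1 (-0.44, adjusted p = 0.129 by limma) were lower in every mutant mouse than in any Wt mouse. Por was called under the same alternatives as Nr1d1 and Nr1d2. Tspan4 shares exonic bases with a gene on the other strand 0.575 times as abundant. Tsc22d3 lost its call without mutant mouse 2. Lonrf3 had 5 to 13 reads in Wt and 18 to 25 in mutant mice, and its call was lost under 12 of 19 alternatives, among them leaving out any mouse but Wt mouse 1.

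**Figure D4:**
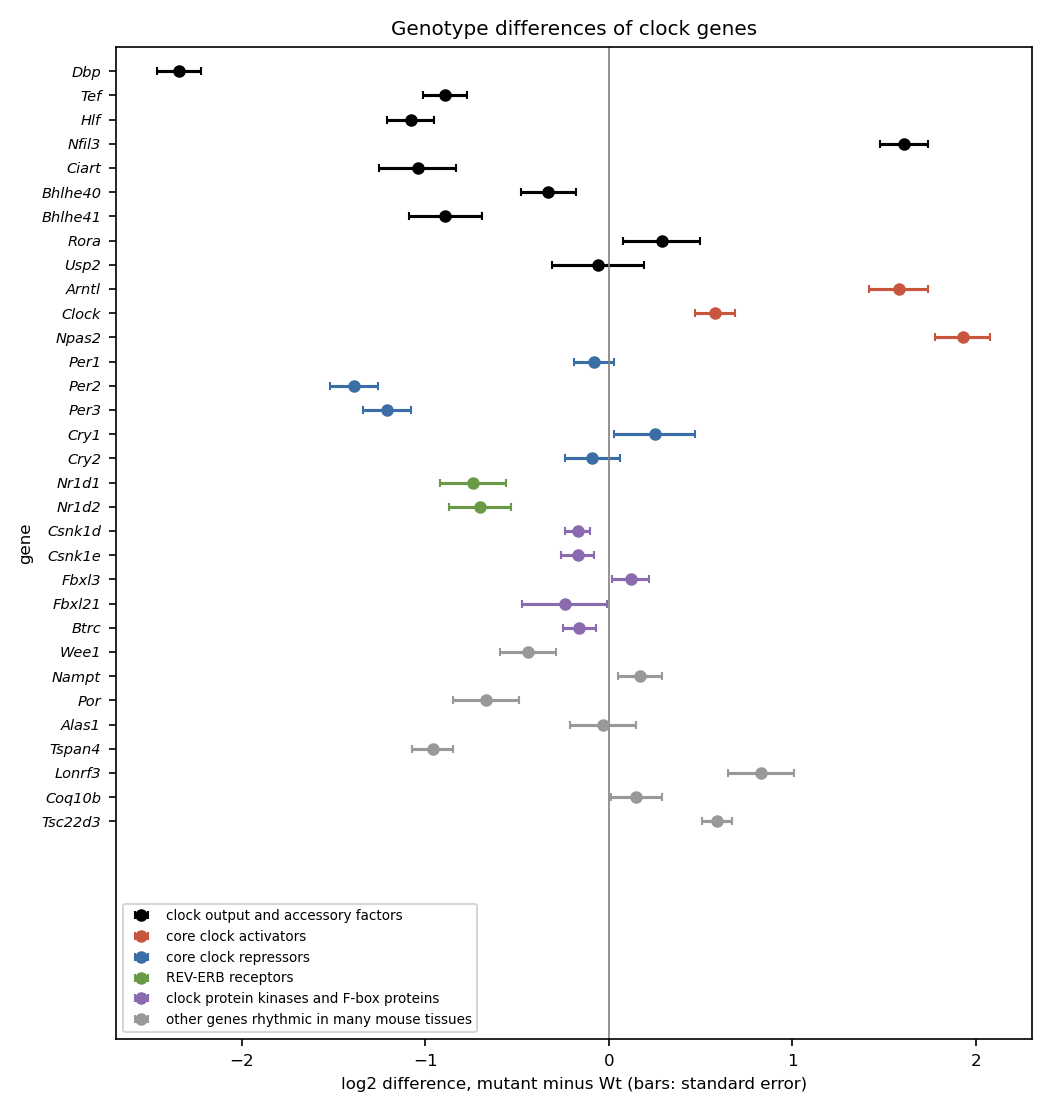
Log2 difference, mutant minus Wt, with its standard error (bars), for the 9 members (black) and for other clock genes of 5 lists, coloured by list. Dbp at -2.34 is the farthest below 0, and Npas2 at 1.93, Nfil3 at 1.61 and Arntl at 1.58 are the farthest above.

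The genes whose log2 values over the 6 mice were most like those of Dbp were sought among 10082 genes with a mean of at least 10. Pearson's r is given as a description, because every such r is carried mostly by the gap between 3 Wt and 3 mutant mice of the same libraries. Among the highest were Cant1 (0.999), Ttll12 (0.998), Poll (0.998) and Tbc1d10b (0.996). Over deviations from the genotype means, their r with Dbp was 0.94, 0.94, 0.85 and 0.89. Their own log2 differences were small, -0.25 to -0.47, so the likeness is one of pattern and not of size. The lowest were 1810014B01Rik (-0.995), Gm12992 (-0.992) and ENSMUSG00000097479 (-0.992), at -0.60, -0.67 and -0.22 over such deviations. Each of these 3 has exonic bases in common with a gene on the other strand that was 32.1, 6.09 and 18.3 times as abundant, so their values may hold reads of that gene. Hlf was 60th in likeness to Dbp (0.983) and Tef 100th (0.977). For Nfil3 the highest were Dtx4 (0.998), Leo1 (0.997), ENSMUSG00000097479 (0.995), the cell cycle inhibitor Cdkn1a (0.994) and Ccdc152 (0.994), and the lowest were Zbtb22 and Rspry1 (both at -0.999 or below) and Mcoln1 (-0.998). Ccdc152 likewise faces a gene 104 times as abundant on the other strand. Dbp and Nfil3 mirrored each other at -0.983. Ciart was below the minimum and was not compared.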

How the data were processed

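RNA was extracted from whole inguinal fat with a column kit and 1 library was made per mouse. The deposited values are a normalized signal per gene, in CPM scaled by the authors with a factor for each mouse. The submitters' processing notes name Bowtie2 2.1.0, RSEM 1.2.15, edgeR and mm10, without their roles. Strand setting and annotation are not given in the sources used here. In each mouse, 100.0% of values above 0 were whole multiples (within 0.1 reads) of a common step, from which read numbers were recovered. Of 55573 identifiers, 99.8% were in GENCODE M21 (GRCm38, the assembly that mm10 names), used for coordinates, exonic lengths and overlaps. Mice of a genotype differed beyond counting error (chi-square over its degrees of freedom 17.5 to 59.1), and all 6 libraries were kept. The floor of 3 reads covers counting error only.

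The genotypes were compared with limma 3.58.1 (R 4.3.3, eBayes with trend) on log2(value + 0.5), over genes kept by filterByExpr of edgeR 4.0.16, at a Benjamini-Hochberg FDR of 0.05. The smallest two-sided p of an exact permutation test is 0.1 for groups of this size. The alternatives were other scalings (library size, DESeq2 1.42.0 size factors, TMM), pseudocounts of 0.1 and 1, other filters, edgeR's quasi-likelihood and DESeq2's Wald test on recovered reads, a replicate block, a correction for GC content in 20 bins, removal of genes with a gene over 10 times as abundant on the other strand, and leaving out each mouse. The script was tested on simulated data. It called 44 of 109 genes changed by a log2 of 1, 66 of 91 changed by a log2 of 2, and 11 unchanged genes. A gene not called may therefore still differ. The unchanged genes were a larger share of those called than the FDR of 0.05, so a called gene may be unchanged. Members and lists were chosen with earlier results of these data known. Named are the members, the called or described genes of the clock lists, overlapping genes on the other strand, and, for Dbp and Nfil3, the 5 genes of highest and 3 of lowest correlation with a mean of at least 10, some of which are not reported here. The comparison of lowest mice under library size alone was added after the data were examined. Python 3.11.15, pandas 2.3.3, NumPy 2.4.6 and Matplotlib 3.10.9 were used.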

Additional observations from a re-analysis of the deposited data

How the results depend on the processing

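Of 171 differences of the 9 members under 19 alternatives, 162 moved by less than the spread between replicates, 4 moved by more and 5 reversed. Those that moved were Dbp, from -2.34 to -2.05 with the GC correction, with and without the block, and Ciart, from -1.04 to -1.38 by edgeR and -1.36 by DESeq2's Wald test. All 5 reversals were of Usp2. Its log2 difference of -0.06 became 0.08 with the GC correction, with and without the block, 0.06 without Wt mouse 1 or Wt mouse 2 and 0.11 without mutant mouse 2 (range leaving out 1 mouse, -0.30 to 0.11). The genes called (1368) became 598 with at least 10 reads required in every mouse, 2118 by DESeq2's Wald test, 344 on removing 1192 genes with an abundant opposite-strand gene, and 554 to 1005 leaving out 1 mouse. Members called were 4 to 6 throughout. Meanwhile the share of all genes tested that were called ran from 2.19% (opposite-strand genes removed) to 24.1% (replicate block). Other clock genes called (8) ranged from 5 to 11, from 5 to 9 leaving out 1 mouse, and were 5 without mutant mouse 2. Of the 1368 called genes, 578 were among those removed, and 446 of the 790 still tested lost their call. The causes were not tested. Depth limits Ciart, whose call rests on 16 to 72 reads per mouse.

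Same-numbered mice deviated together at r = 0.69, 0.06 and 0.56 across genes, and Wt mouse 2 was more like mutant mouse 3 (0.33), so the numbers were not taken as a pairing. With the replicate block 4063 genes were called (1733 higher, 2330 lower), and 3074 with the block and GC correction. The block left 6 members called and raised the other clock genes called to 11. The share of all genes tested that were called rose with it, from 8.11% to 24.1%.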
